A study of Mus musculus with 8 samples.

Results

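The data described here ask where 2 alterations of the mouse Mir140 gene had unequal effects on the RNA of rib chondrocytes. For each gene, the log2 difference between mutants and wild types of the C>T line (CT line in what follows) was subtracted from the same difference in the CG line. This line difference is positive where the CG effect lies above the CT effect. It was tested for every gene that passed a filter on low counts, which was 14359 of the 18501 genes in the deposited table. No gene was chosen for the test by its line difference. Many of the genes named below were picked by p-value or after values were seen.

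RNA was sequenced from 8 libraries in 4 groups of 2, all from CD1 mice that were 10 days old. CG mutants carry an altered seed region of the 3p arm of miR-140, CT mutants carry a C>T base change of a kind not described further, and each line has wild types of its own. Per the series' design text, both mutations are ways of raising the 5p arm. In every group the cells came from rib cartilage digested with collagenase, filtered and plated before RNA extraction, so they are cultured cells. Whether a group's duplicate libraries represent different animals, where the C>T change lies and how the colonies are related is not in the labels. The p-values rest on the variation among these 8 libraries alone, and some of it may be technical. An effect below is the difference between mutant and wild type libraries of a line. Other differences between those libraries, such as animal or background, cannot be told apart from the mutation.

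MicroRNAs are short RNAs that are loaded into Argonaute proteins and lower the stability and translation of mRNAs that pair with their seed, the bases near the 5′ end. Each hairpin precursor can give a 5p and a 3p arm with different seeds and so different targets. miR-140 is abundant in cartilage, and its gene lies in an intron of Wwp2, which encodes a ubiquitin ligase. Chondrocytes build a matrix of type II, IX and XI collagens and of proteoglycans such as aggrecan, under the control of the transcription factor SOX9. The 3p arm is shown because its seed is the site altered in the CG line. The sequences are from RefSeq on GRCm38.p6, 5′ to 3′, with the seed (bases 2 to 8 of the arm) in capitals.
miR-140-3p: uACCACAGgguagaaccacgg
Mir140 hairpin: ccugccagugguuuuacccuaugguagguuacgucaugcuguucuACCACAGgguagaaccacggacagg
These are reference sequences. The bases of either mutant allele are not in the labels.

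Total counts were 26536868 to 28678641 per library. Col2a1, which encodes type II collagen, was at 4855 to 10637 FPKM (fragments per kilobase of transcript, scaled to library size). The fibroblast collagen gene Col1a1 was at 15.6 to 219 FPKM, so this pair of genes fitted the chondrocyte label. The lines lay apart on principal component 1, which held 64.5% of the variance. On component 2, which held 12.2%, CG mutant replicate 1 was at -47.0 and CG mutant replicate 2 at 8.37. Levels are also given in CPM, which are counts scaled to equal library size, as in edgeR. Summed Y-linked expression was under 2 CPM in CG wild type 1, CT wild type 2 and CT mutant 2. It was at least 143 CPM in the other libraries. Both CG mutants were thus high, while each other group held 1 low and 1 high library, so the groups were not balanced in this. A list of 13 fibroblast collagen and matrix genes, Fn1 and Sparc among them, summed to 55930 to 105300 CPM per library. The 15 genes of cartilage collagens and their partners summed to 30910 to 63790 CPM. The purity of the cells was not tested. Bulk RNA cannot tell fewer cells of a type from less RNA per cell.

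For few genes did the test find that mutants and wild types differed unequally in the lines. By edgeR's quasi-likelihood test with Benjamini-Hochberg adjustment, 3 of 14359 genes (0.0209%) passed a threshold of 0.05. A negative line difference was called for Eif3j2 and Cwc22 (0.0139% of genes) and a positive one for Palld (0.00696%). The smallest adjusted p of the genes that did not pass was 0.152. At an unadjusted p under 0.05 there were 687 genes (4.78%), of which 379 (2.64%) had a positive and 308 (2.14%) a negative value. In each of the 3 called genes the mutation went with a higher level in one line and a lower level in the other.

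Eif3j2 is a near-identical copy of Eif3j1, which encodes a subunit of the translation initiation factor eIF3. It was at 129 and 58.9 CPM in CG wild types, 1.04 and 1.30 CPM in CG mutants, 1.55 and 1.39 CPM in CT wild types and 57.0 and 59.5 CPM in CT mutants. The CG wild types and the CT mutants were thus the libraries with high values, and no library lay between. The log2 effect was -6.32 ± 0.42 (SE) in the CG line and 5.30 ± 0.39 in the CT line. The line difference was -11.62 ± 0.57 on the log2 scale, with a 95% interval of -12.94 to -10.30 and an edgeR adjusted p of 0.00053.

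The level of Eif3j2 is uncertain. A counter may split reads from near-identical copies in either way, and whether this occurred here was not tested. Eif3j1 was at 0.652 and 73.2 CPM in CG wild types, 146 and 143 CPM in CG mutants, 183 and 181 CPM in CT wild types and 118 and 117 CPM in CT mutants. Its values were lower where those of Eif3j2 were high. Eif3j2 took 99.5% and 44.6% of the summed counts of both genes in CG wild types, 32.7% and 33.7% in CT mutants and under 1% in the other 4 libraries. The sum itself was at 130 and 132 CPM in CG wild types, 147 and 144 CPM in CG mutants, 185 and 183 CPM in CT wild types and 175 and 177 CPM in CT mutants. In the sum, wild types and mutants of a line were close together. Its line difference was 0.22 ± 0.11 with an edgeR adjusted p of 0.967. For Eif3j1 alone the line difference was 2.60 ± 1.61, with an adjusted p of 0.967 and CG wild type replicate 1 far below replicate 2. Without CG wild type replicate 1 the value for Eif3j1 was 1.61 with an adjusted p of 0.0251, and without replicate 2 it was 8.42 with an adjusted p of 7.058e-06.

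Cwc22 encodes a splicing factor that brings the exon junction complex to spliced RNA. It was at 138 and 134 CPM in CG wild types and 43.3 and 40.0 CPM in CG mutants. In the CT line it was at 46.1 and 53.0 CPM in wild types and 239 and 143 CPM in mutants. Both CG wild types and both CT mutants lay above all 4 of the other libraries, so the groups did not overlap. The log2 effect was -1.71 ± 0.21 in the CG line and 1.95 ± 0.21 in the CT line, a line difference of -3.66 ± 0.30 with an edgeR adjusted p of 0.0148. Without CT wild type replicate 1 or 2 the adjusted p was 0.113 or 0.126, at line differences of -3.56 and -3.76.

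Palld encodes palladin, a protein that bundles actin filaments. It was at 72.6 and 49.2 CPM in CG wild types and 151 and 138 CPM in CG mutants. The CT line had 101 and 106 CPM in wild types and 43.6 and 42.4 CPM in mutants. Here the CG mutants and the CT wild types were the high groups, the reverse of Cwc22, and they did not overlap the other 4 libraries. The log2 effect was 1.24 ± 0.17 in the CG line and -1.27 ± 0.17 in the CT line. Their difference was 2.52 ± 0.23, with a 95% interval of 1.98 to 3.06 and an edgeR adjusted p of 0.0239. Palld no longer passed when any 1 of the CT libraries was left out, with adjusted p-values of 0.113 without CT wild type 1, 0.164 without CT wild type 2, 0.127 without CT mutant 1 and 0.177 without CT mutant 2. Its line difference in those fits was 2.48 to 2.56.

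**Figure D1:**
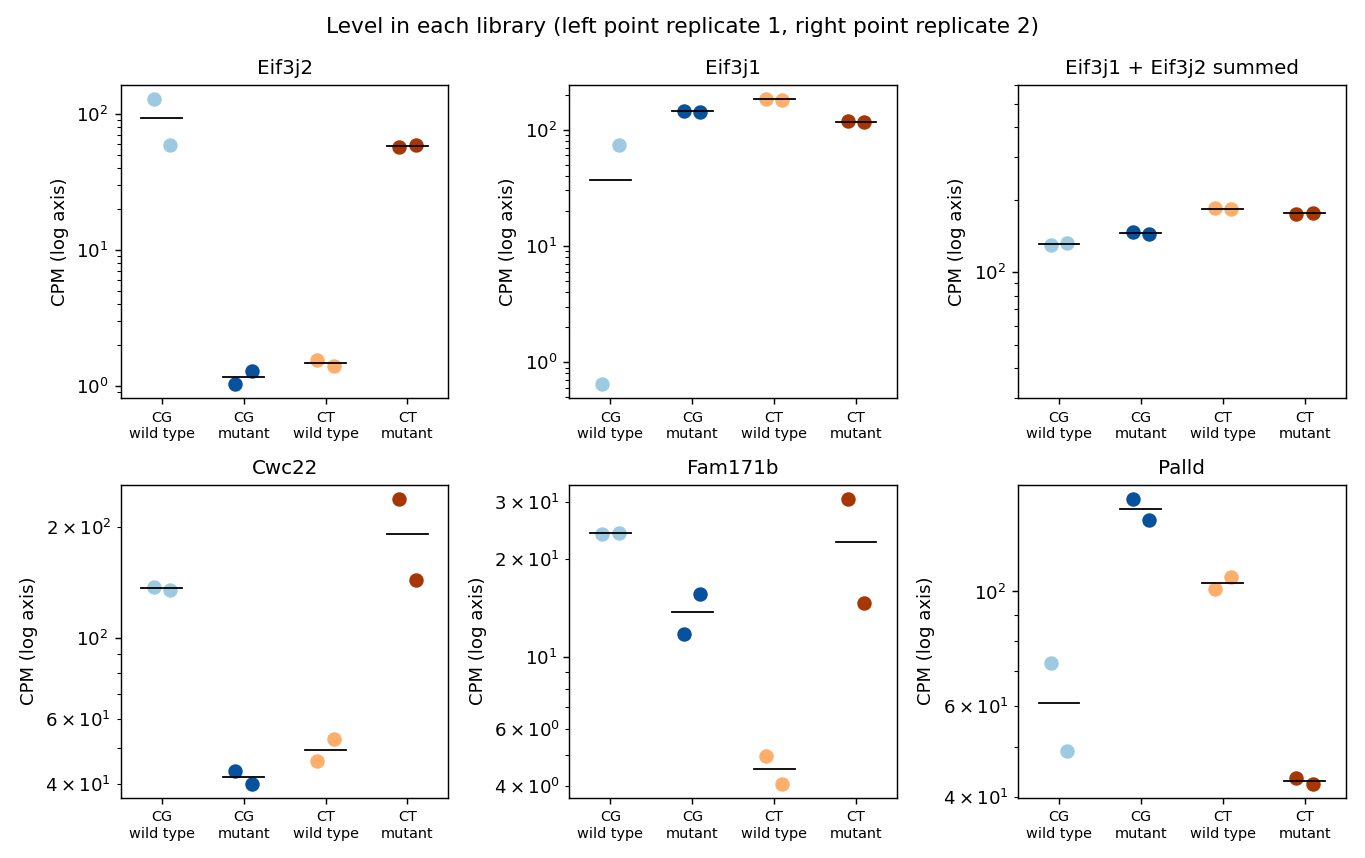
CPM on a log axis in each of the 8 libraries for Eif3j2, Eif3j1, their sum, Cwc22, Fam171b and Palld; points are libraries and lines are group means. Eif3j2 and Cwc22 are high in CG wild types and CT mutants, as is Fam171b in all but CT mutant replicate 2, Palld is high in CG mutants and CT wild types, and the sum of the copies is at 130 to 185 CPM in all 8 libraries.

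The authors' deposited table of comparisons lists the same opposite directions for these genes. For Cwc22 it gives a log2 ratio of -1.71 in the CG line and 1.947 in the CT line, with q-values of 8.7e-34 and 4.02e-18. For Palld the authors' deposited table gives 1.244 and -1.274, and for Eif3j2 -6.353 and 5.321. It holds no test of the difference between the lines, and its ratios come from the same groups, so they are no separate support. In the edgeR fit used here the effects within a line did not pass for Cwc22 or Palld. Their adjusted p-values in the CG and CT lines were 0.0804 and 0.124 for Cwc22 and 0.0865 and 0.222 for Palld.

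A crossing of this kind can also be read as a change in the contrast between lines. Between the lines, 33.7% of genes differed among wild types and 36.1% among mutants at an edgeR adjusted p under 0.05, and 3717 genes differed in both. In 9 of these 3717 (0.242%) the line that was higher among wild types was lower among mutants. They were Eif3j2, Cwc22, Palld, Srp54a, Ddit4l, Lmcd1, Map1a, Zfp874a and Ralgapa2, a set picked out after values were seen. CG wild types exceeded CT wild types by a log2 value of 1.46 for Cwc22, with an adjusted p of 0.00221, and CG mutants stood below CT mutants by -2.20, with an adjusted p of 0.00046. For Palld the same contrasts were -0.77 and 1.75.

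In the sets of genes around the 3 called genes in function, no further gene passed. Of 14 measured eIF3 subunit genes, Eif3j2 was the member that passed and 12 had a 95% interval within 1 log2 unit of 0. Eif3c, which encodes the subunit with the next smallest p, had a line difference of 0.30 ± 0.14. Of 14 genes of the exon junction complex and partners of Cwc22, 13 had an interval within 1 log2 unit. Among them Rbm8a, a core component, was at 0.18 ± 0.14 and Upf2, a factor of nonsense-mediated decay, at 0.17 ± 0.15. Of 18 actin and contractile genes, Palld was the member that passed, 11 lay above 0, the list median was 0.10 and 12 had an interval within 1 log2 unit. The median over all 14359 genes was 0.01, with 51.6% above 0 and 63.4% with an interval within 1 log2 unit. In the actin list, 3 genes had an unadjusted p under 0.05 with a higher value and 2 with a lower one. Over all genes these shares were 2.64% and 2.14%.

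Lmcd1, which encodes a LIM domain cofactor and stands in the actin list, had the next smallest p there. It was at 24.7 and 24.9 CPM in CG wild types and 77.0 and 58.8 CPM in CG mutants. The CT line had 47.8 and 37.6 CPM in wild types and 47.2 and 39.0 CPM in mutants. The CG groups were apart and the CT groups overlapped. The line difference of 1.44 ± 0.24 had an edgeR adjusted p of 0.309. Myo1d, an unconventional myosin gene of the same list, was at 0.53 ± 0.14 with an adjusted p of 0.828. Cnn1 and Acta2, also of that list, lay on the other side of 0, at -1.53 ± 0.43 and -0.86 ± 0.30.

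Gene order was taken from the RefSeq table of GRCm38.p6, with up to 8 tested genes on either side. None of the 16 neighbours of Cwc22 on chromosome 2 and none of the 16 neighbours of Palld on chromosome 8 had a line difference beyond 1 log2 unit. They ran from -0.57 to 0.81 around Cwc22 and from -0.80 to 0.94 around Palld. Of all genes, 5.52% lay beyond 1. Around Eif3j1, which also lies on chromosome 2, 2 of 16 neighbours lay beyond 1. An unadjusted p under 0.05 was found for 4 neighbours of Eif3j1, 1 of Cwc22, 1 of Eif3j2 and 0 of Palld. The share over all genes was 4.78%, and these counts were not tested. Around Eif3j2 on chromosome 18, 3 of 16 lay beyond 1. Its direct neighbour Gm3650, an unnamed gene model looked at after its values were seen, was at 3.91 and 2.00 CPM in CG wild types, 0.374 and 0.343 CPM in CG mutants, 0.141 and 0.204 CPM in CT wild types and 0.752 and 0.744 CPM in CT mutants. CG wild types were again highest and CT mutants next. Its line difference of -5.12 ± 0.67 had an edgeR adjusted p of 0.152.

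Over all genes the line difference was mostly smaller than its error, with a median size of 0.18 and a median SE of 0.23. Its median was 0.01 and its SD 0.57, and 90% of genes lay between -0.71 and 0.72. Beyond 1 log2 unit, which is a 2-fold difference, there were 792 genes (5.52%), and beyond 2 there were 144. The 95% interval lay within 1 log2 unit of 0 for 9102 genes (63.4%), so a line difference of over 2-fold was outside the interval for these. This held for 91.6% of genes in the upper 25% of expression levels and for 4.82% in the lowest 25%. For most genes of the lowest 25% the interval did not exclude a 2-fold difference. The shares of depth and of the 2 libraries per group in this were not tested.

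More genes had a mutant effect at a small p in the CG line, where the mutant duplicates also differed most from each other. The chi-square per gene between their counts was 57.7, against 20.4 to 28.2 in the other groups. The share of this spread in the counts that follow was not tested. At an unadjusted p under 0.05 there were 1633 genes (11.4%) in the CG line and 734 (5.11%) in the CT line, and 1 gene passed edgeR's adjusted threshold in each (0.00696%), Eif3j2. Of the 687 genes with a line difference at that level, the effects had opposite signs in 558, against 41.2% of all genes. Choosing genes by the difference of the 2 effects itself favours opposite signs, so nothing is read from that count. The effect was larger in size in the CG line for 494 and in the CT line for 193. Over all genes the median size of the effect was 0.17 in the CG line and 0.12 in the CT line. Nothing is therefore read from these counts either. Both effects had an unadjusted p under 0.05 and opposite signs in 32 genes, of which 14 had a positive and 18 a negative line difference.

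**Figure D2:**
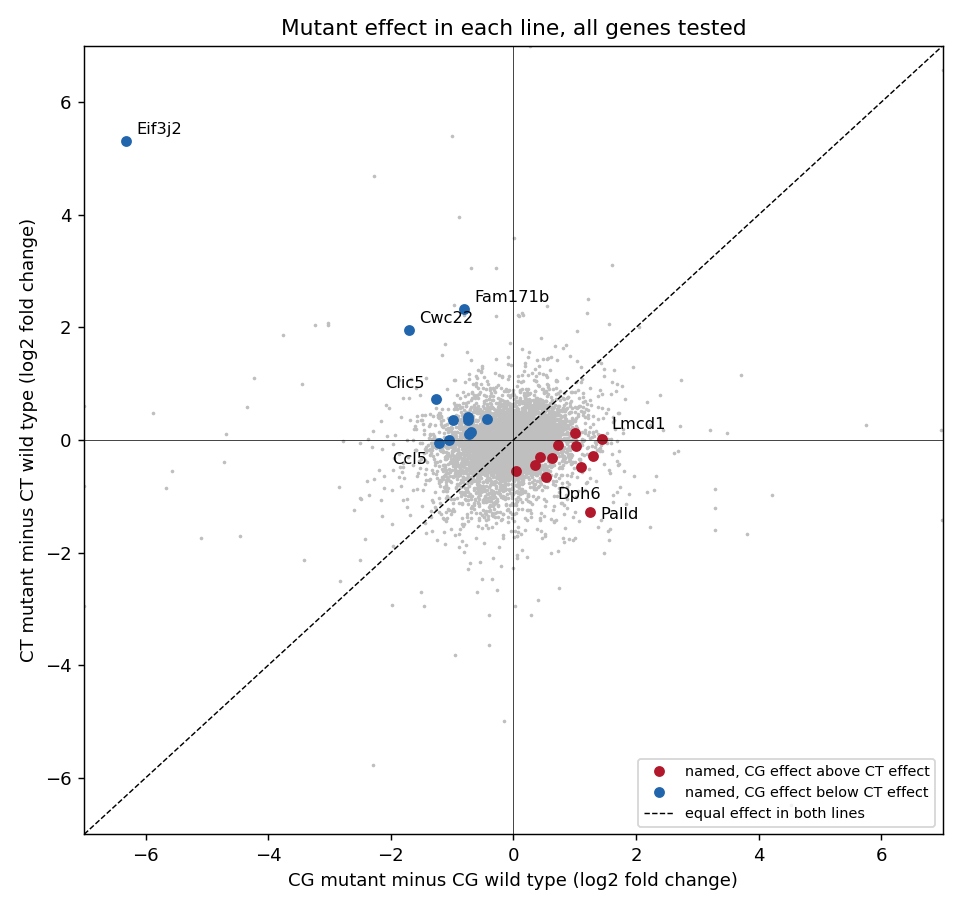
Log2 mutant effect in the CT line (vertical axis) against that in the CG line (horizontal axis) for 14359 genes, with values past the axis limits drawn at the edge; the dashed line marks equal effects. Eif3j2, Cwc22, Fam171b and Palld lie far from the dashed line in the quadrants of opposite effects, and most genes lie near the centre.

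As a check by library, the 4 possible differences between a mutant and a wild type library in the CG line were set against the 4 in the CT line. The 2 sets did not overlap for 2434 genes (17.0%), 1203 (8.38%) with the CG line higher and 1231 (8.57%) with it lower. Without normalization factors these counts were 746 and 1759, and the median line difference of all genes was -0.08. The 21 further genes named by p-value, Lmcd1 among them, had the smallest p-values among genes with non-overlapping lines and a mean log2-CPM of at least 1. None of them passed, with edgeR adjusted p-values of 0.152 to 0.707.

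After Eif3j2 and Cwc22, Dio2 had the smallest p of the named genes with a negative line difference. Dio2 encodes the deiodinase that activates thyroid hormone, which drives chondrocyte maturation. It was at 199 and 190 CPM in CG wild types and 90.3 and 105 CPM in CG mutants. The CT line had 39.5 and 32.3 CPM in wild types and 46.1 and 46.4 CPM in mutants. CG mutants lay between the CG wild types and the CT libraries. Its line difference of -1.36 ± 0.17 had an edgeR adjusted p of 0.152. Srp54a, which encodes the GTPase of the signal recognition particle, had effects of -0.74 ± 0.11 in the CG line and 0.41 ± 0.11 in the CT line and an adjusted p of 0.152.

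Fam171b, a membrane protein gene on chromosome 2, had a pattern like that of Cwc22. It was at 24.0 and 24.1 CPM in CG wild types, 11.8 and 15.7 CPM in CG mutants, 4.97 and 4.08 CPM in CT wild types and 30.7 and 14.7 CPM in CT mutants. The CT mutants differed from each other, and the lower of them lay among the CG mutants. The line difference of -3.13 ± 0.46 had an edgeR adjusted p of 0.231. The adjusted p was 0.0125 without CT mutant replicate 2 and 0.0357 without CG mutant replicate 2.

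Ccl5 and Cmc2 were lower in CG mutants than in CG wild types, with little contrast in the CT line. Ccl5, a chemokine gene, was at 894 and 838 CPM in CG wild types and 394 and 350 CPM in CG mutants, against 191 to 241 CPM in the 4 CT libraries. The line difference was -1.17 ± 0.18. Cmc2, a gene for assembly of cytochrome c oxidase, was at 40.1 and 36.7 CPM in CG wild types, 16.3 and 20.6 CPM in CG mutants and 43.7 to 45.3 CPM in the CT line. The CG mutants were thus the low group, and the line difference was -1.06 ± 0.17. The stress gene Ddit4l, with -0.84 ± 0.13, and the zinc finger gene Zfp970, with -0.82 ± 0.13, had CT effects of 0.14 and 0.10. Clic5, which encodes a chloride channel protein, had opposite effects of -1.27 ± 0.25 and 0.73 ± 0.21 at 0.706 to 5.33 CPM. Map1a, a microtubule-associated protein gene, had -1.10 ± 0.20, and the netrin receptor gene Neo1 had -0.82 ± 0.15.

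The other named genes with a positive line difference, 10 besides Palld and Lmcd1, differed in function. Dph6, an enzyme of diphthamide synthesis, was at 15.0 and 17.4 CPM in CG wild types and 26.2 and 20.7 CPM in CG mutants, and at 13.8 CPM in both CT wild types and 8.07 and 9.41 CPM in CT mutants. The groups did not overlap within either line, and the line difference was 1.20 ± 0.22 with an edgeR adjusted p of 0.544. Creb3l1 encodes a membrane-bound transcription factor that promotes collagen secretion. It was at 103 and 109 CPM in CG wild types and 139 and 132 CPM in CG mutants. The CT line had 65.5 and 53.8 CPM in wild types and 44.9 and 42.7 CPM in mutants. Its line difference was 0.79 ± 0.15.

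Of the 2 receptor-type phosphatase genes, Ptpra had effects of 0.05 ± 0.08 in the CG line and -0.56 ± 0.09 in the CT line, and Ptprj had 0.63 ± 0.14 and -0.32 ± 0.14. The transcription factor gene Tshz2 was at 15.1 and 13.8 CPM in CG wild types and 31.2 and 26.8 CPM in CG mutants, with 18.9 to 22.6 CPM in the CT line. Ralgapa2, a GTPase-activating protein gene, had 1.14 ± 0.25, the respiratory chain gene Cox4i2 1.59 ± 0.35 and the leukocyte actin-binding protein gene Lsp1 1.57 ± 0.33. Gcsh, of the glycine cleavage system, had 0.81 ± 0.18 and Use1, of vesicle transport, 0.74 ± 0.15.

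**Figure D3:**
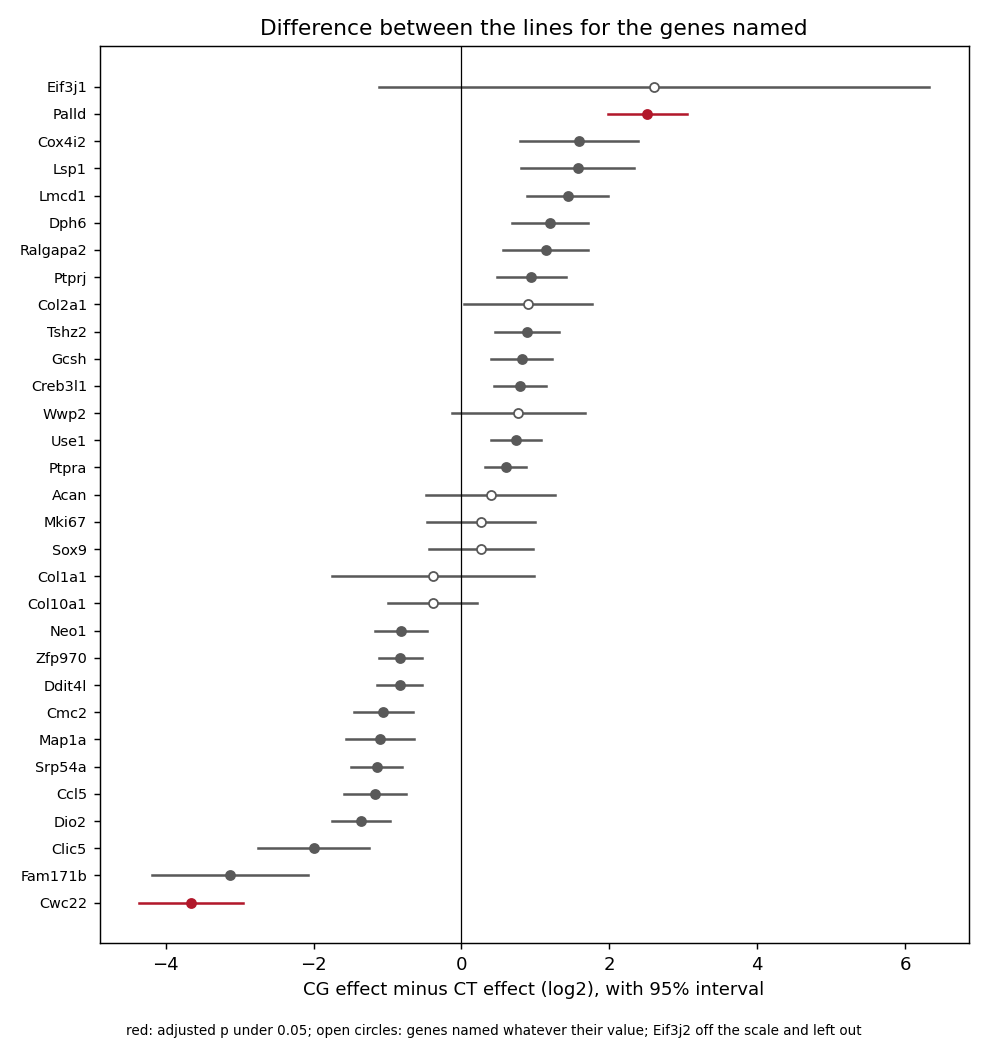
Line difference (CG effect minus CT effect, log2) with its 95% interval for the genes named by p-value and for 8 genes named whatever their value, drawn as open circles; Eif3j2 is left out because it is off the scale. Cwc22 and Palld, in red, had an adjusted p under 0.05, and the intervals of Wwp2, Acan, Sox9, Col10a1, Col1a1, Mki67 and Eif3j1 include 0.

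Genes with a line difference were unevenly spread over chromosomes. On chromosome 2, 102 of 1138 tested genes (8.96%) had an unadjusted p under 0.05, against 4.39% on the other chromosomes together. Chromosome 2 had the highest share of the 20 chromosomes compared and chromosome 8, where Mir140 and Wwp2 lie, the next, at 6.81%. The other 18 had 3.16% to 5.44%. Of the 24 genes named by p-value, 11 lay on chromosome 2 and 4 on chromosome 8. These counts were made after values were seen and were not tested.

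The median line difference on chromosome 2 was 0.0018, so the values as a whole were not shifted to one side. In blocks of 100 genes in order, the first and second held 1 and 2 such genes, the third to the ninth held 8 to 14, the tenth held 4 and the eleventh 13. At an unadjusted p under 0.05, 13.8% of chromosome 2 genes had an effect in the CG line and 6.33% in the CT line, against 11.4% and 5.11% of all genes. Chromosome 13 had more of both, with 14.5% and 7.34%, and chromosome 7 had 6.44% in the CT line. On chromosome 8 these shares were 16.0% and 4.94%, above all other chromosomes for the CG effect. Chromosome 2 was above the other chromosomes together in each of 21 settings of the fit, and the highest single chromosome in 20 of them. Without CG wild type replicate 1 its share was 4.66% against 2.62%, and without CG mutant replicate 2 it was 15.6% against 12.1%.

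**Figure D4:**
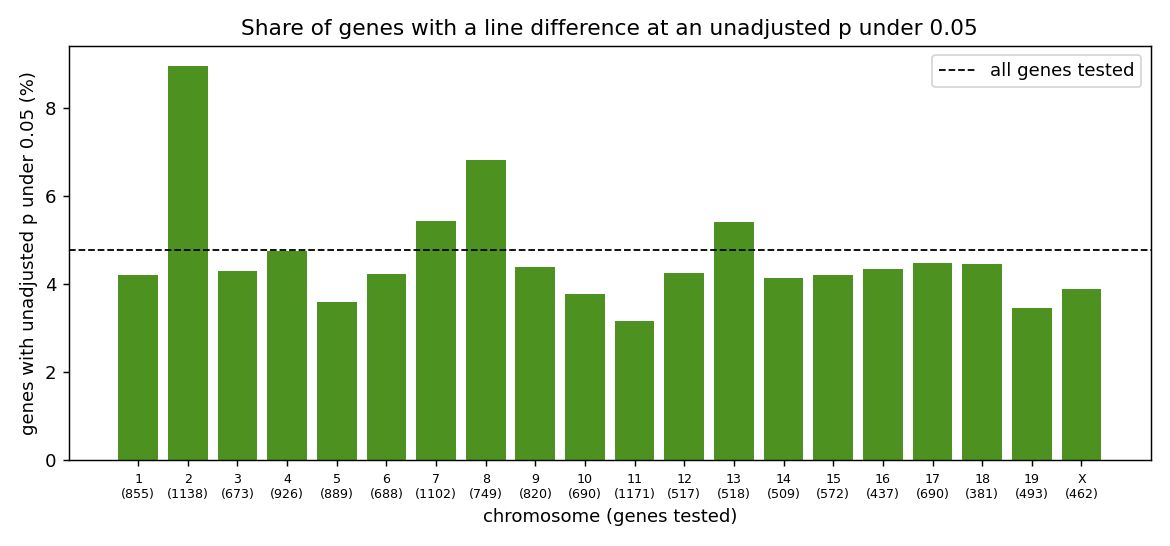
Percent of tested genes on each chromosome whose line difference had an unadjusted p under 0.05, with the number tested in brackets; the dashed line is the 4.78% of all genes. Chromosome 2 stands at 8.96% and chromosome 8 at 6.81%.

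Wwp2, the host gene of Mir140, reports its own mRNA and not the level of either arm. It was at 497 and 490 CPM in CG wild types and 1043 and 601 CPM in CG mutants. The CT line had 244 and 295 CPM in wild types and 206 and 321 CPM in mutants. CG mutant replicate 1 was the highest library, and the CT groups overlapped. For Wwp2 the line difference was 0.77 ± 0.39, with an edgeR adjusted p of 0.967 and an interval of -0.13 to 1.67. It was 0.32 without CG mutant replicate 1 and 1.12 without replicate 2. Of 13 genes of microRNA processing and Argonaute proteins, all had an interval within 1 log2 unit of 0. Dicer1, which cuts precursors into mature microRNAs, had -0.20 ± 0.14 and Tnrc6a, an Argonaute partner, -0.18 ± 0.12.

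Since the 3p seed is altered in the CG line, matches to it were counted in the longest annotated 3′ UTR of 13873 genes (GENCODE M21, GRCm38). The letters searched on the transcript strand were CTGTGGT or TGTGGTA in 7 letters, and CTGTGGTA, which holds both. The 8 letters occurred in 607 genes (4.38%), whose median line difference was 0.0002. One of the 7-letter forms without the full 8 occurred in 3177 genes (22.9%), with a median of -0.01, and the 10089 genes without a match had a median of 0.02. Genes with a match had longer UTRs, with a median length of 2640 and 2391 bases against 1037. In each of 4 classes of UTR length, medians with and without a match lay close, with 0.08 against 0.06 in the shortest and -0.04 in both in the longest.

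Of the called genes, Palld had 2 such matches in a UTR of 1919 bases, and the longest UTRs of Eif3j2 and Cwc22 had none of these letters. The Palld matches are shown, in capitals, with 10 bases on each side.
Palld, UTR base 594: tgcttacaatCTGTGGTgaataaaaga
Palld, UTR base 1612: tcctgtgcagTGTGGTAcaagtctctt
A match describes the letters and is no measured site. No gene reported as a target of either arm passed. Of 17 reported 5p targets 4 lay above 0, with a median line difference of -0.17. Ostm1, a lysosomal membrane protein gene, was at -0.34 ± 0.18, the TGF-beta receptor gene Tgfbr1 at -0.29 ± 0.15 and the collagen crosslinking enzyme gene Loxl3 at 0.46 ± 0.29. The median was -0.02 without CG mutant replicate 1 and -0.30 without replicate 2. The 3 reported 3p targets were Ncoa1 at -0.18 ± 0.16, Nrip1 at -0.20 ± 0.17, both nuclear receptor cofactors, and Cd38 at -0.41 ± 0.52.

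Of the cartilage matrix genes, the collagen list stood above the background. Col2a1 was at 25753 and 24959 CPM in CG wild types and 41094 and 24140 CPM in CG mutants. The CT line had 50163 and 40571 CPM in wild types and 31648 and 30879 CPM in mutants. In the CG line 1 mutant was high and the other level with the wild types, and in the CT line both mutants were low. The line difference was 0.90 ± 0.38, with an unadjusted p of 0.0436 and an edgeR adjusted p of 0.967. For Col2a1 it was 0.47 without CG mutant replicate 1 and 1.24 without replicate 2. Of 15 genes of cartilage collagens and their partners, 13 lay above 0, with a median of 0.59, against 51.6% of all genes above 0 and a median of 0.01. An unadjusted p under 0.05 with a higher value was found for 6 of the 15, against 2.64% of all genes. The type IX collagen genes Col9a1 and Col9a2 were at 0.94 ± 0.31 and 0.88 ± 0.34, and Cnmd, which encodes chondromodulin, at 0.53 ± 0.21. None passed. The median was 0.31 without CG mutant replicate 1 and 0.95 without CG mutant replicate 2, so the size depended on the CG mutant library.

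Among other cartilage genes the values lay on both sides of 0. Acan, the aggrecan gene, had a line difference of 0.39 ± 0.38 and Sox9 0.27 ± 0.30, and both were negative without CG mutant replicate 1. Of 11 proteoglycan genes 6 lay above 0, with a median of 0.01 that was -0.12 without CG mutant replicate 1 and 0.16 without replicate 2. The lubricin gene Prg4 was at -1.15 ± 0.38. Col10a1, the collagen of hypertrophic chondrocytes, was at -0.39 ± 0.26 and the hypertrophy list at a median of -0.03 with 7 of 15 above 0, or 0.05 without CG mutant replicate 1 and -0.36 without replicate 2. The proliferation marker Mki67 was at 0.27 ± 0.32.

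Elastic fibre genes had a median of 0.37, and 4 of 16 had an unadjusted p under 0.05 with a higher value, against 2.64% of all genes. None passed, and the smallest edgeR adjusted p was 0.922. The crosslinking enzyme gene Lox was at 0.48 ± 0.15, the fibulin gene Fbln2 at 0.61 ± 0.22 and the elastin gene Eln at 1.36 ± 0.51. Fbln2 was at 12.2 and 12.7 CPM in CG wild types and 36.7 and 28.3 CPM in CG mutants, and at 13.4 and 15.2 CPM in CT wild types and 26.7 and 22.4 CPM in CT mutants. Both mutant groups lay above their wild types, so its line difference is one of size. Eln was at 0.66 without CG mutant replicate 1 and 1.84 without replicate 2. Timp3, an inhibitor of matrix proteases, was at 2800 and 3000 CPM in CG wild types and 8379 and 4251 CPM in CG mutants, and at 1244 to 1530 CPM in the CT line. Its line difference of 1.21 ± 0.39 had an edgeR adjusted p of 0.922, and it was 0.64 without CG mutant replicate 1 and 1.63 without replicate 2, where it passed.

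Chemokine and inflammatory genes stood below the background, with 1 of 20 above 0 and a median line difference of -0.68. None passed, and 1, Ccl5, had an unadjusted p under 0.05. The acute phase gene Saa3 was at -0.72 ± 0.36. Cxcl5, which attracts neutrophils, was at 57.7 and 64.9 CPM in CG wild types, 7.11 and 46.9 CPM in CG mutants and 10.9 to 19.4 CPM in the CT line. The low CG value was that of replicate 1, and the line difference was -0.79 without it and -3.51 without replicate 2. The list median was -0.27 without CG mutant replicate 1 and -1.41 without CG mutant replicate 2. For tendon and ligament genes the median was -0.44, 2 of 9 lay above 0, and the median was -0.21 or -1.05 without the same replicates.

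Targets of NRF2, the regulator of antioxidant genes, had 2 of 10 members above 0 and a median of -0.30, which was -0.07 without CG mutant replicate 1 and -0.71 without replicate 2. The thioredoxin reductase gene Txnrd1 was at -0.75 ± 0.44 and the sulfiredoxin gene Srxn1 at -1.17 ± 0.50. Without CG mutant replicate 1 or 2 these were -0.31 or -1.35 for Txnrd1 and -0.66 or -1.96 for Srxn1. Gsr, which encodes glutathione reductase, lay on the other side. It was at 62.0 and 57.2 CPM in CG wild types, 105 and 174 CPM in CG mutants and 83.1 to 93.2 CPM in the CT line, with a line difference of 1.13 ± 0.28 and an edgeR adjusted p of 0.772. Gsr was higher in CG mutant replicate 2 than in replicate 1, and without replicate 1 it passed.

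Genes of the stress response and targets of the transcription factor ATF4 had 13 of 15 members above 0 and a median of 0.29. The list's median effect was below 0 in both lines, at -0.12 in the CG line and -0.61 in the CT line. In its 2 terms Ddit3 thus differed from the list median. Ddit3, which encodes the stress factor CHOP, was at 148 and 150 CPM in CG wild types, 201 and 167 CPM in CG mutants, 51.6 and 32.3 CPM in CT wild types and 27.8 and 22.3 CPM in CT mutants. CG mutants were above and CT mutants below their wild types, with a line difference of 1.05 ± 0.30 and an edgeR adjusted p of 0.919. Trib3, a pseudokinase gene of the same response, was at 0.67 ± 0.23. Cytosolic ribosomal protein genes, a list added after values were seen, had 71 of 79 above 0 at a median of 0.11, and 76 had an interval within 1 log2 unit of 0. Without normalization factors, which moved all genes by the shift given above, the ribosomal median was 0.02. It was also 0.02 without CT wild type replicate 2. The ATF4 median was 0.03 in the fit that left out CT wild type replicate 1.

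Genes of neutrophil granules lay above 0 in 11 of 11, with 1 of them, Lcn2, below 0 in 8 of 20 alternatives, among them the fit without normalization factors. Their median line difference was 0.99, and it was 0.30 without CG mutant replicate 2 and 1.34 without CG mutant replicate 1. An unadjusted p under 0.05 with a higher value was found for 4 of the 11, against 2.64% of all genes, and none passed. Ngp was at 0.906 and 0.958 CPM in CG wild types, 0.956 and 2.90 CPM in CG mutants, 68.4 and 46.7 CPM in CT wild types and 19.1 and 23.3 CPM in CT mutants. Within the CT line the mutants lay below the wild types without overlap, and all 4 CG libraries lay lower still. Ngp had a line difference of 2.50 ± 0.60, the lactoferrin gene Ltf 2.40 ± 0.63 and the cathelicidin gene Camp 1.06 ± 0.25, with edgeR adjusted p-values of 0.772 to 0.821. For Ngp the value was 1.49 without CG mutant replicate 2 and 3.08 without replicate 1. The list's summed level was 2221 to 4467 CPM in the CG line and 265 to 433 CPM in the CT line. In the CG line most of that sum was Lcn2, which encodes lipocalin 2 and had a line difference of 0.11. Erythroid markers summed to 4.65 to 17.3 CPM in the CG libraries and 791 to 1536 CPM in the CT libraries, highest in CT wild type 1. Of 8 tested, 4 lay above 0. The beta globin genes Hbb-bs and Hbb-bt were at -6.40 ± 1.83 and -6.96 ± 2.22, both with an edgeR adjusted p of 0.922. Their effects in the CT line were 5.41 ± 1.33 and 4.68 ± 1.38, while the median CT effect of the erythroid list was -0.74. Why these genes went the other way was not tested. The alpha globin genes Hba-a1 and Hba-a2 were at 0.14 ± 0.64 and -0.63 ± 2.35, and Epb42 was at 3.19 ± 1.51. Macrophage markers summed to 341 to 587 CPM over all libraries, with 8 of 12 above 0. Their median was 0.24, but -0.84 without CG mutant replicate 2 and 0.81 without CG mutant replicate 1. The part of such cells in the line differences of other genes was not tested.

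**Figure D5:**
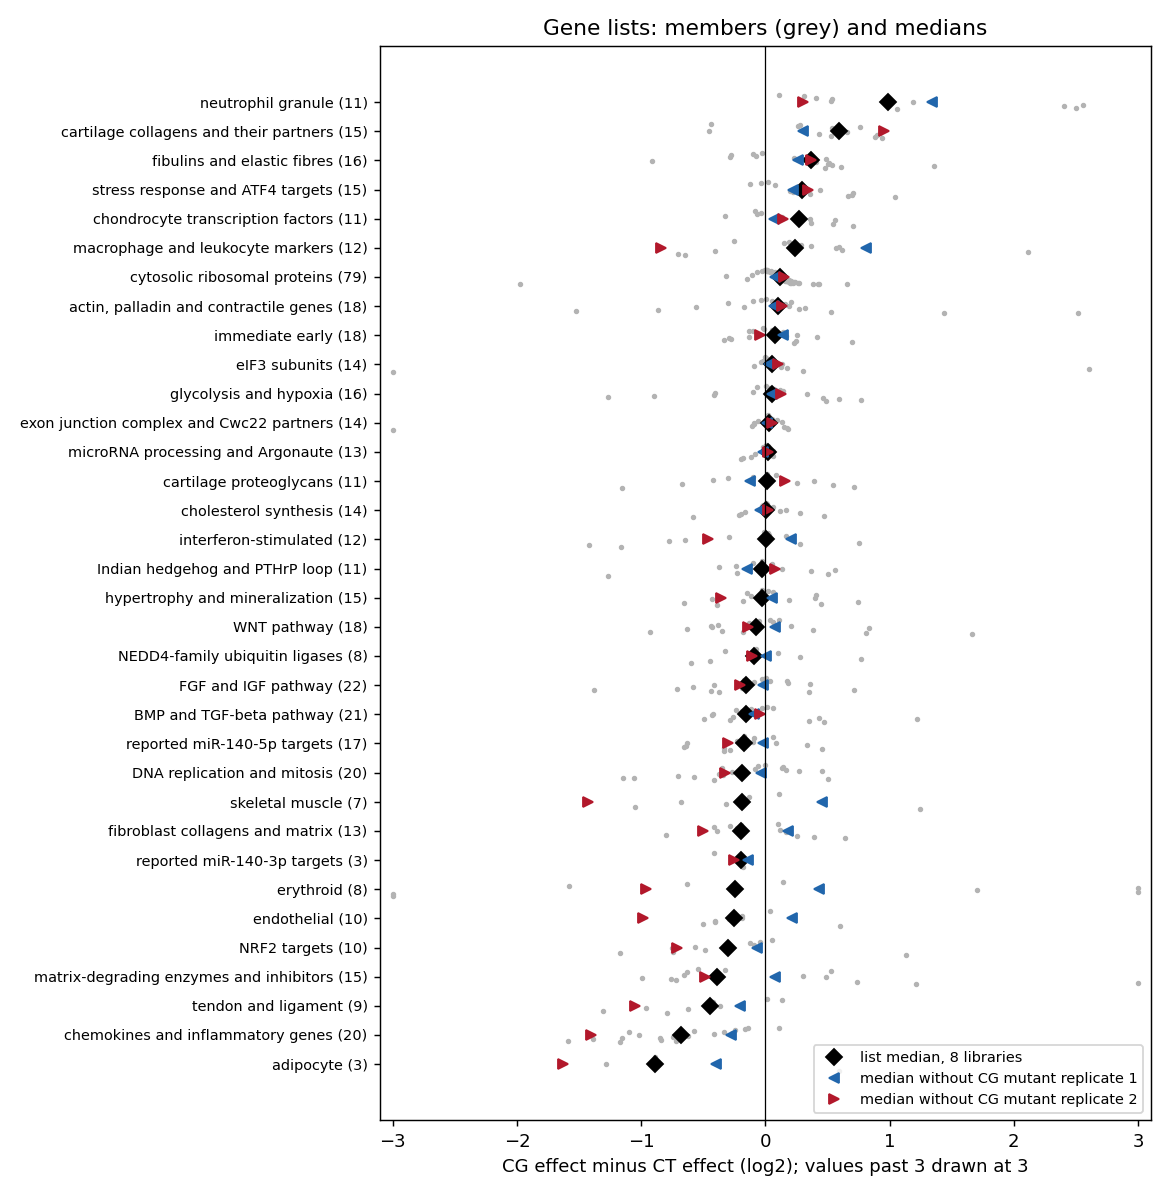
Line difference (log2) of the members of 34 gene lists (grey) with the list median over 8 libraries (diamond) and the medians without CG mutant replicate 1 (blue) or 2 (red); values past 3 are drawn at 3 and the number tested is in brackets. The cartilage collagen median lies at 0.59 and the chemokine median at -0.68, and both are farther from 0 without replicate 2 than without replicate 1.

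The number of calls depended on the CG mutant library, and no other setting gave as many as the fit without CG mutant replicate 2. Without CG mutant replicate 2, edgeR called 97 genes, 28 higher and 69 lower, and these still held Eif3j2, Cwc22 and Palld. Among the 97 were the chemokine and cytokine genes Ccl2, Ccl7, Cxcl5 and Il6, each lower, and picked out here after values were seen. The NRF2 targets Gclm and Srxn1 were also lower, and Timp3 was the 1 protease or inhibitor gene of 4 that was higher. Without CG mutant replicate 1 there were 5 calls, which added Gsr and Plpp1. There were 7 calls without CG wild type replicate 1, 5 without CG wild type replicate 2 and 1, Eif3j2, without CT wild type replicate 1. In a group of 2 with 1 library left out, the lone library is assumed to vary like the other groups.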

How the data were processed

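RNA-seq of 8 libraries was analysed from the authors' deposited gene table, which per the file headers gives a read count and an FPKM value for each of 18501 genes and library. The deposited read counts are estimated counts without normalization. Between 2282 and 2518 values per library were fractional, and all were rounded. The deposited FPKM values served for the marker check and for alternatives, as log2 of FPKM plus 1 or 0.1. A second table deposited by the authors holds log2 ratios and q-values of group comparisons. HISAT2 2.0.4 and mm9 are listed in the submitters' processing notes. Read counter and annotation: not given in the sources used here. Symbols of 24 genes turned into dates were restored by Entrez ID. Names and gene order came from RefSeq (GRCm38.p6), so no coordinates are given.

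The line difference was tested by edgeR 4.0.16 under R 4.3.3 (quasi-likelihood F test, 4 group means, TMM factors, default filter on low counts, 4 residual degrees of freedom, Benjamini-Hochberg adjustment, threshold 0.05). SE is the absolute log2 value divided by the square root of F. CPM are scaled by TMM-adjusted library sizes. Alternatives used DESeq2 1.42.0, limma 3.58.1, other normalizations and filters, terms for replicate number and Y-linked expression, and each library left out. Code was tested on simulated counts. The contrast, gene lists and naming rule were chosen with earlier results of these data known. Named are all genes past the threshold, the 12 smallest p-values in each direction among genes with non-overlapping lines and a mean log2-CPM of at least 1 (these include the called genes; unnamed gene models were passed over), 8 genes whatever their value, and up to 3 members with the smallest p-values of each list described. No 2 libraries of a group agreed within sampling noise.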

Additional observations from a re-analysis of the deposited data

Results flagged for a closer look

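In 3 genes the test of the difference itself found that mutants and wild types differed unequally in the CG and CT lines. The line difference, CG effect minus CT effect on the log2 scale, was -11.62 for Eif3j2, -3.66 for Cwc22 and 2.52 for Palld, with edgeR adjusted p-values of 0.00053, 0.0148 and 0.0239. In each of them the direction held in all 4 pairs of libraries within each line. For Eif3j2 the difference was lost when its counts were summed with those of its copy Eif3j1.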

How the results depend on the processing

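Over 20 alternatives the line difference stayed between -12.07 and -8.72 for Eif3j2, -3.98 and -3.24 for Cwc22, and 2.27 and 2.83 for Palld, and Eif3j2 passed in each. With counts of Eif3j1 and Eif3j2 summed the value turned to 0.22 (adjusted p 0.967). Against 3 calls (1 higher, 2 lower), DESeq2 gave 38 (16 higher, 22 lower), the fit without a filter 5 (2 higher), the Y-linked term at 1 CPM 4 (2 higher), and FPKM plus 0.1 none higher (0), with Palld at 2.44 and an adjusted p of 0.0512. With 1 library left out, calls ran from 1 without CT wild type 1 to 97 without CG mutant 2 (higher 0 to 28, lower 1 to 69). The lines did not overlap for 3995 to 6490 genes in those fits, where fewer pairs are compared, against 2434. Acan reached -0.12 to 0.79, Sox9 -0.14 to 0.60 and Col1a1 -1.33 to 0.18. Lcn2, at 0.11, was at -0.0016 without normalization factors, -0.16 with a Y-linked term at 10 CPM, -0.046 and -0.048 for FPKM plus 1 and 0.1, and -0.34 to 0.46 with 1 library left out. The cause of these shifts was not tested. A Y-linked limit of 10 CPM was added after seeing the data and gave 3 calls. With the replicate number as a block there were 3 calls and 620 genes at an unadjusted p under 0.05, and no call changed. Same-numbered libraries correlated at -0.0892 to 0.248 in their deviations, so the numbers were not taken as pairs. With 2 libraries per group, the median SE was 0.64 in the lowest 25% of expression levels and 0.15 in the highest 25%.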

Other observations

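Outside the gene symbols, an unnamed gene model with Entrez ID 105246811, looked at after its values were seen, had a line difference of 2.62 on the log2 scale, with an effect of 0.62 in the CG line and -2.003 in the CT line. It did not pass over all 8 libraries, and it passed in the fit without a filter on low counts, with a Y-linked term at 1 CPM, and without CG wild type replicate 1 or 2. Plpp1, a lipid phosphate phosphatase gene, had effects of -0.95 in the CG line and 1.06 in the CT line, in that order the enkephalin precursor gene Penk -0.44 and 0.42, and Cst3, which encodes the protease inhibitor cystatin C, -0.51 and 0.43. Nupr1, a stress-induced chromatin protein gene, had 0.38 and -0.40, and the cell cycle inhibitor gene Cdkn2b 0.62 and -0.45. Each of these 5 named genes had an unadjusted p under 0.05 in both lines, with opposite signs, and none passed edgeR's test of the line difference over all 8 libraries. Plpp1 passed without CG mutant replicate 1, at -2.77, and without CG mutant replicate 2, at -1.50.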
